A study of Mus musculus with 6 samples.

Results

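The nuclear genes of respiratory complex I were taken as every row of the deposited mouse count table whose symbol begins with Nduf and that held at least 10 counts summed over the 6 libraries. The rule returned 51 of 27482 gene symbols. Of these, 43 carry a subunit symbol (Ndufa, Ndufb, Ndufc, Ndufs, Ndufv or Ndufab1) and 8 are assembly factors (Ndufaf1 to Ndufaf8). The 43 include 4 copies of subunit genes, namely Ndufab1-ps, Ndufb4b, Ndufb4c and Ndufs6b. The GENCODE vM21 annotation lists Ndufab1-ps, Ndufb4c and Ndufs6b as processed pseudogenes. The libraries are labelled as hearts of male mice, and 3 libraries from mice that overexpressed FNDC4 from an AAV9 vector (AAV9-hFNDC4) were set against 3 from mice with a control AAV9 (AAV9-CTRL). All animals of both groups had undergone ischemia/reperfusion (I/R), a temporary stop of blood flow to the heart, and the tissue was taken 24 h later, so no uninjured heart is among the libraries. The strain, the age, the promoter of the vector and whether each library was a separate animal are not stated. The p-values below therefore set the difference between the groups against the spread of these libraries within a group, and that spread may be technical.

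Complex I is the entry point of electrons from NADH into the respiratory chain of the inner mitochondrial membrane, and it pumps protons as it passes the electrons to ubiquinone. A catalytic core, split between nuclear and mitochondrial DNA, is surrounded by accessory subunits that are all encoded in the nucleus, and assembly factors build the complex but are absent from the finished enzyme. The heart depends on this chain for most of its ATP, and complex I is a known site of reactive oxygen production when blood flow returns after ischemia.

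Total counts were between 34419687 and 35149915 in the AAV9-hFNDC4 libraries and between 32975817 and 36074046 in the AAV9-CTRL libraries. Genes with counts numbered 18717 to 18863 in AAV9-hFNDC4 and 20431 to 20870 in AAV9-CTRL. The scaling factors (TMM) were 1.03 to 1.07 in AAV9-hFNDC4 and 0.929 to 0.959 in AAV9-CTRL. The part of these group differences in the results below was not tested. The libraries are labelled heart, but of 12 cardiomyocyte markers only Tnnt2, Ttn and Myh7 averaged at least 1 CPM (counts scaled to library size), and Nkx2-5 and Pln had no count in any library. The 12 markers summed to 45.1 to 46.6 CPM in AAV9-hFNDC4 and 58.1 to 59 CPM in AAV9-CTRL. Tnnt2 carried that difference (mean 38.1 CPM in AAV9-hFNDC4 and 51.7 CPM in AAV9-CTRL), while Myh7 (mean 2.06 CPM in AAV9-hFNDC4 and 1.09 CPM in AAV9-CTRL) and Ttn (mean 4.62 CPM in AAV9-hFNDC4 and 3.9 CPM in AAV9-CTRL) went the other way. The 7 fibroblast markers, 6 of which averaged at least 1 CPM, summed to 11467 to 12125 CPM in AAV9-hFNDC4 and 7133 to 8400.3 CPM in AAV9-CTRL. Fn1 made up most of that gap (mean 5467 CPM in AAV9-hFNDC4 and 1889.9 CPM in AAV9-CTRL), and Vim went the other way (mean 3259.5 CPM in AAV9-hFNDC4 and 3906 CPM in AAV9-CTRL). Of the 4 mural cell markers 2 averaged at least 1 CPM, and the 4 summed to 531 to 594 CPM in AAV9-hFNDC4 and 296 to 357 CPM in AAV9-CTRL. Cspg4 (mean 389.5 CPM in AAV9-hFNDC4 and 236.7 CPM in AAV9-CTRL) and Pdgfrb (169.5 and 81.8 CPM in that order) carried that gap. Rgs5 and Myh11, which averaged under 1 CPM, went the other way. Leukocyte and macrophage markers, with 2 of 5 averaging at least 1 CPM, summed to 17.8 to 19.9 CPM in AAV9-hFNDC4 and 34.6 to 42.7 CPM in AAV9-CTRL. Cd68 made up most of that gap (mean 11.7 CPM in AAV9-hFNDC4 and 27.9 CPM in AAV9-CTRL). Lyz2 (7.04 and 7.62 CPM in that order) and Ptprc (0.0909 and 0.0914 CPM) differed little. Endothelial markers, with 1 of 5 averaging at least 1 CPM, summed to 1.27 to 2.43 CPM in AAV9-hFNDC4 and 2.42 to 3.89 CPM in AAV9-CTRL. The endothelial sums of the groups overlapped and the other sums did not, and their part in the results below was not tested. In bulk tissue, fewer cells of a type and less RNA per cell cannot be told apart.

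Before any length correction, transcripts of the nuclear complex I genes were lower in AAV9-hFNDC4 libraries across nearly the whole family. Of the 50 members that passed the low-count filter, 45 were lower in AAV9-hFNDC4 at an adjusted p under 0.05 (edgeR quasi-likelihood test, Benjamini-Hochberg adjustment over all 14663 genes tested), where 25.0% of all genes tested were called lower. No member was called higher by that test, where 22.1% of all genes tested were called higher, and 1 member was higher at an unadjusted p under 0.05. DESeq2 and limma-voom each called 1 member higher, Ndufv3. The 5 members without a call were Ndufv3, Ndufa4l2, Ndufaf7, Ndufs6b and Ndufb4b, and the copy Ndufb4c did not pass the filter, with 0.374, 0.111 and 0.109 CPM in AAV9-hFNDC4 and 0.26, 0.191 and 0.359 CPM in AAV9-CTRL. The same 45 members had every AAV9-hFNDC4 library below every AAV9-CTRL library, a pattern held by 29.5% of all genes tested, and the reverse pattern was held by 27.1% of all genes tested and by no member. The median log2 fold change (AAV9-hFNDC4 over AAV9-CTRL) over the members tested was -0.71, against 0.007 over all genes tested. Of the 1931 tested genes with transcripts of 586 to 1282 bases, 45% were called lower, with a median of -0.39. With the transcript and exon length corrections given below, 32 and 31 members were called lower (medians -0.37 and -0.31).

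The changes were moderate in size. The 6 members that were called with a log2 fold change under -1 were Ndufb6, Ndufb2, Ndufb10, Ndufa1, Ndufa2 and Ndufb1, all of them small accessory subunits, where 7.18% of all genes tested were lower by that rule. The fold reduction among called members went up to 2.27 for Ndufb6. As a share of all counts, the 51 members together took 0.296% to 0.305% in AAV9-hFNDC4 libraries and 0.374% to 0.458% in AAV9-CTRL libraries.

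**Figure D1:**
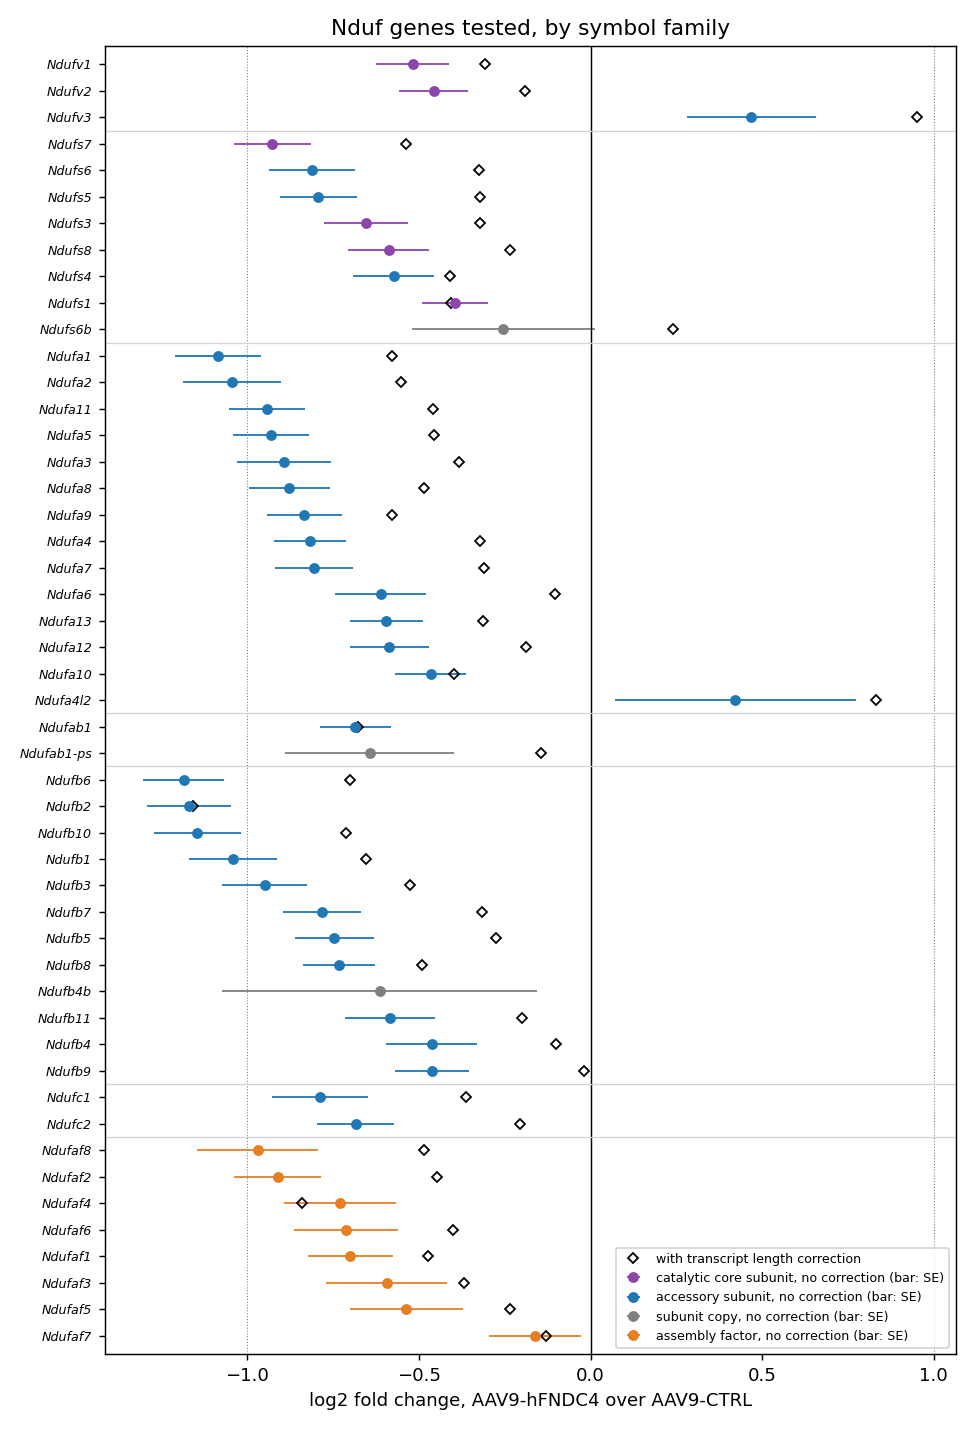
Log2 fold change (AAV9-hFNDC4 over AAV9-CTRL) of 49 Nduf genes tested, by symbol family, with bars for the standard error; open diamonds give the value after a transcript length correction, for the members with a transcript length. Filled points of 47 members lie below 0 and those of Ndufv3 and Ndufa4l2 lie above it, and most diamonds stand to the right of their points.

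The promoters of 4 members are shown for what they add to the expression values: Ndufb6 has the largest reduction, Ndufs7 the largest among the catalytic core subunits described, Ndufaf8 the largest among the assembly factors, and Ndufv3 is the member with the largest positive fold change. Each runs 5′ to 3′ on the strand of its gene, with 250 bases before and 50 after the gene's start in RefSeq (GRCm38.p6), and capitals mark a motif. They lie at chr4:40279372-40279671 (minus strand) for Ndufb6, chr10:80249199-80249498 (plus strand) for Ndufs7, chr11:120098684-120098983 (plus strand) for Ndufaf8 and chr17:31519865-31520164 (plus strand) for Ndufv3.
Ndufb6: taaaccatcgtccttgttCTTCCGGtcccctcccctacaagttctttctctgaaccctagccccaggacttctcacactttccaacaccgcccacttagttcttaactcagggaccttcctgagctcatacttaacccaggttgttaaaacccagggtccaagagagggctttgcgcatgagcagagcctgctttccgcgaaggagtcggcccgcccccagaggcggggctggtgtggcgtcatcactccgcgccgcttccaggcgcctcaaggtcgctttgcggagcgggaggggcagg
Ndufs7: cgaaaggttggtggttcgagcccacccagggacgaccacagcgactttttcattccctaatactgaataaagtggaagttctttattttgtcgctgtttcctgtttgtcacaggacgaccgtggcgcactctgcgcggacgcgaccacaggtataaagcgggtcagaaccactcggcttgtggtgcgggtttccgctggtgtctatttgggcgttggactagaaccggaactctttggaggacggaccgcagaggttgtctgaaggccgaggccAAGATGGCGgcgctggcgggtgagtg
Ndufaf8: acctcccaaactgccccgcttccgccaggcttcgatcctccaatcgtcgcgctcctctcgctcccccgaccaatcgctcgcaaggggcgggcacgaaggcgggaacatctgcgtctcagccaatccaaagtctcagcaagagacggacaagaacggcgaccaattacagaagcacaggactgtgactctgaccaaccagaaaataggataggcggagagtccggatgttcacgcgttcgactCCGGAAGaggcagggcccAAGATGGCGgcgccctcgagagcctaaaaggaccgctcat
Ndufv3: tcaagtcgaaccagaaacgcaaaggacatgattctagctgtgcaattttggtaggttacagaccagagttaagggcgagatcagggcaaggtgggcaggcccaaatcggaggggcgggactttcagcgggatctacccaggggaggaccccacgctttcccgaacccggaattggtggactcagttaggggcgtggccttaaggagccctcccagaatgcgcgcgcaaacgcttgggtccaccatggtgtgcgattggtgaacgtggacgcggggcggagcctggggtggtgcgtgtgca

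Short cores of 4 factors known to bind promoters of respiratory genes were searched on both strands of the promoters. These were GCGCATGCG for NRF1, CCGGAAG for GABPA and other ETS factors, AAGATGGCG for YY1 and TCAAGGTCA for ESRRA. None of these cores holds another, and the near-palindromic NRF1 core can match both strands at overlapping positions, which was counted as 1 promoter. RefSeq promoters were matched for 42 of the 51 members by symbol. The YY1 core stood in 6 of the 42 genes (14.3%), against 3.22% of the 11503 tested genes with a promoter and 1.4% of all 32851 promoters. These were Ndufa9, Ndufaf8, Ndufc1, Ndufs4, Ndufs6 and Ndufs7, and in all 6 the core ran in the direction of the gene with its centre 14 to 39 bases after the start. It is the stretch in capitals near the end of the Ndufs7 and Ndufaf8 sequences. The ETS core was found in 6 members (14.3%; Ndufaf1, Ndufaf8, Ndufb6, Ndufb7, Ndufs3 and Ndufs8), against 18.9% of tested genes and 8.86% of all promoters. It lies 5 bases before the start in Ndufaf8 and far upstream, in reverse, in Ndufb6. The NRF1 core was in 4 members (9.52%; Ndufa8, Ndufa11, Ndufaf4 and Ndufaf5), against 3.76% of tested genes and 1.75% of all promoters. The ESRRA core was in no member, and in 0.313% of tested genes and 0.423% of all promoters. The printed Ndufv3 window holds none of the 4 cores. Any core was present in 15 members (35.7%) and in 24.4% of tested genes, while the median GC content was 59.3% in both sets. A match describes letters in a window and not a bound site.

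Of the nuclear subunits of the catalytic core, 6 are described here, most of which carry the flavin or iron-sulfur clusters, and all 6 were called lower, with a median log2 fold change of -0.55. Ndufv1 holds the flavin that accepts electrons from NADH. It had 109, 109 and 102 CPM in AAV9-hFNDC4, against 135, 165 and 158 CPM in AAV9-CTRL (log2 fold change -0.52, SE 0.11, adjusted p = 0.00207). Its partner in the NADH module, Ndufv2, had 129, 124 and 131 CPM in AAV9-hFNDC4, against 159, 188 and 181 CPM in AAV9-CTRL (log2 fold change -0.46, SE 0.10, adjusted p = 0.00331). In both genes the groups stood clear of each other, and AAV9-CTRL replicate 1 was the lowest of the controls. Ndufs1, the largest subunit of the complex and a carrier of iron-sulfur clusters, had 128, 119 and 123 CPM in AAV9-hFNDC4, against 162, 154 and 172 CPM in AAV9-CTRL (log2 fold change -0.395, SE 0.10, adjusted p = 0.00586). No library of Ndufs1 crossed into the other group.

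The other core subunits described had larger fitted fold changes. Ndufs7, which holds the last iron-sulfur cluster before ubiquinone, had 62.7, 59.3 and 59.3 CPM in AAV9-hFNDC4, against 99.6, 124 and 121 CPM in AAV9-CTRL (log2 fold change -0.93, SE 0.11, adjusted p = 8.89e-05). Ndufs3, a core subunit of the matrix arm, had 65, 55.8 and 50.7 CPM in AAV9-hFNDC4, against 80.5, 93.9 and 95.5 CPM in AAV9-CTRL (log2 fold change -0.65, SE 0.12, adjusted p = 0.00118). Ndufs8, a carrier of iron-sulfur clusters, had 46.2, 54.3 and 44.6 CPM in AAV9-hFNDC4, against 65.5, 77 and 75.5 CPM in AAV9-CTRL (log2 fold change -0.59, SE 0.12, adjusted p = 0.00183). No library of either group crossed into the other for these 3 genes.

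**Figure D2:**
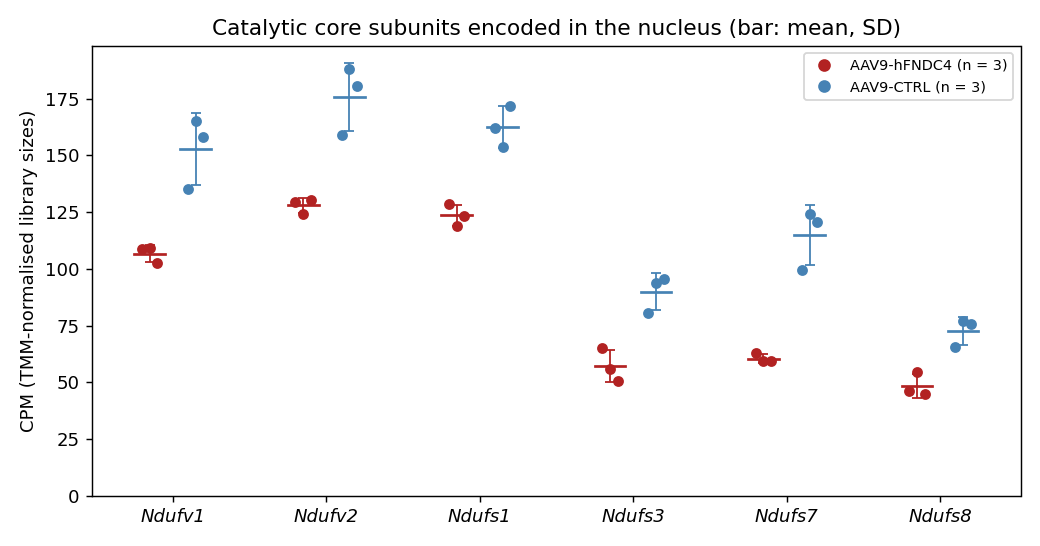
CPM per library of 6 nuclear catalytic core subunits, AAV9-hFNDC4 (left of each pair) and AAV9-CTRL (right), n = 3 each, with bars for mean and SD. Every AAV9-hFNDC4 point lies below every AAV9-CTRL point, as in Ndufs7 (59.3 to 62.7 CPM in AAV9-hFNDC4 against 99.6 to 124 CPM in AAV9-CTRL).

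The 32 genes with accessory subunit symbols, among them Ndufa4 and Ndufa4l2, had a median log2 fold change of -0.79, with 30 called lower and 2 not called. The Ndufb family sits mainly in the membrane arm, and 11 of its 12 members tested were called lower (median log2 fold change -0.765), all but the copy Ndufb4b. Ndufb6 had 40.4, 46.1 and 40.8 CPM in AAV9-hFNDC4, against 84.4, 105 and 99.8 CPM in AAV9-CTRL (log2 fold change -1.185, SE 0.12, adjusted p = 3.02e-05). Its highest AAV9-hFNDC4 library was well under its lowest control. Ndufb6 (chr4:40270591-40279421, minus strand, GENCODE vM21 on GRCm38) shares 39.0% of its exon bases with Smim27 on the opposite strand. With no strand setting stated, how reads within those shared bases were counted is not known. Ndufb2 had 29.6, 30.1 and 30 CPM in AAV9-hFNDC4, against 56.7, 74.2 and 71 CPM in AAV9-CTRL (log2 fold change -1.17, SE 0.12, adjusted p = 3.94e-05). Ndufb10 had 52.9, 41.9 and 50.3 CPM in AAV9-hFNDC4, against 94.4, 117 and 109.8 CPM in AAV9-CTRL (log2 fold change -1.15, SE 0.13, adjusted p = 4.82e-05). In both genes the lowest control was far above the highest AAV9-hFNDC4 library. The smallest changes of called Ndufb genes were those of Ndufb4 and Ndufb9, with log2 fold changes of -0.46 each. Ndufb4 missed the threshold without AAV9-hFNDC4 replicate 1 or 3 or without AAV9-CTRL replicate 3 (adjusted p = 0.0634, 0.0542 and 0.0567 in that order). Ndufb9 shares 28.6% of its exon bases with Gm49356 on the same strand. The copy Ndufb4b was near the limit of detection at 0.454, 0.499 and 0.652 CPM in AAV9-hFNDC4 and 0.607, 1.02 and 0.838 CPM in AAV9-CTRL (log2 fold change -0.61, SE 0.46, adjusted p = 0.294), and its groups overlapped.

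The Ndufa family is spread over both arms of the complex, and 13 of its 14 members were called lower, with a median log2 fold change of -0.83. Ndufa1, a small membrane subunit, had 34.9, 32.2 and 37 CPM in AAV9-hFNDC4, against 62.9, 82.8 and 75.3 CPM in AAV9-CTRL (log2 fold change -1.09, SE 0.125, adjusted p = 6.58e-05). Ndufa11, another membrane subunit, had 42.3, 39.4 and 38.4 CPM in AAV9-hFNDC4, against 69, 82 and 80 CPM in AAV9-CTRL (log2 fold change -0.94, SE 0.11, adjusted p = 7.48e-05). In both genes each control stood well above each AAV9-hFNDC4 library. Other called Ndufa members ran from Ndufa2 (log2 fold change -1.05, adjusted p = 0.000172) to Ndufa10 (log2 fold change -0.47, adjusted p = 0.00332). Ndufa2 shares 11.5% of its exon bases with Tmco6 and Ndufa13 shares 30.0% with Tssk6, both on the opposite strand, while Ndufb1 (17.1%, Cpsf2), Ndufb11 (12.9%, Rbm10) and Ndufb5 (12.2%, Mrpl47) have like overlaps.

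Ndufa4 and Ndufa4l2 carry complex I symbols, but the Ndufa4 protein is now known as a subunit of complex IV, and Ndufa4l2 is its paralog, known as a target of HIF-1 in hypoxia. Ndufa4 had 142, 132 and 129.8 CPM in AAV9-hFNDC4, against 213, 242 and 256 CPM in AAV9-CTRL (log2 fold change -0.82, SE 0.105, adjusted p = 0.00012), with no overlap. Ndufa4l2 had 89, 129 and 116 CPM in AAV9-hFNDC4, against 43.5, 139.9 and 66 CPM in AAV9-CTRL (log2 fold change 0.42, SE 0.35, adjusted p = 0.354). AAV9-CTRL replicate 2 had the highest Ndufa4l2 level of all libraries and the other controls the lowest. Without AAV9-CTRL replicate 2 the log2 fold change was 1.025 (adjusted p = 0.00212), and without AAV9-CTRL replicate 1 it was 0.15 (adjusted p = 0.709). Without AAV9-CTRL replicate 3 the value was 0.28 (adjusted p = 0.605). With all libraries kept, Ndufa4l2 was called higher with a replicate block (0.58, adjusted p = 0.0471) and with an exon length correction (0.94, adjusted p = 0.0427). It was not called with a transcript length correction (0.83, adjusted p = 0.0641), DESeq2 or limma-voom. Its call thus turned on the library left out and on the fit. Whether Ndufa4 and Ndufa4l2 differ in their response was not tested.

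Among the accessory genes of the Ndufs, Ndufv, Ndufc and Ndufab1 families, Ndufv3 was the exception in sign. Ndufv3, a small subunit of the NADH module (chr17:31520115-31531331, plus strand), had 60.4, 83.7 and 72.2 CPM in AAV9-hFNDC4, against 38.6, 68 and 49.8 CPM in AAV9-CTRL (log2 fold change 0.47, SE 0.19, adjusted p = 0.0599). The groups overlapped, since AAV9-CTRL replicate 2 lay above AAV9-hFNDC4 replicate 1. Ndufv3 was called higher without AAV9-CTRL replicate 2 (log2 fold change 0.705, adjusted p = 0.00293) and without AAV9-hFNDC4 replicate 1 (log2 fold change 0.59, adjusted p = 0.0359). Over the 15 other settings run, its adjusted p was between 0.000738 and 0.181. Ndufs5 had 39.8, 45.4 and 39.1 CPM in AAV9-hFNDC4, against 65.9, 74.2 and 75.3 CPM in AAV9-CTRL (log2 fold change -0.79, SE 0.11, adjusted p = 0.000206). Ndufs4 and Ndufs6, accessory subunits whose loss in people causes complex I deficiency, had log2 fold changes of -0.57 (adjusted p = 0.00212) and -0.81 (adjusted p = 0.00037). The copy Ndufs6b had 2.8, 3.16 and 2.09 CPM in AAV9-hFNDC4, against 2.98, 3.7 and 2.93 CPM in AAV9-CTRL (log2 fold change -0.25, SE 0.27, adjusted p = 0.46), with overlapping groups.

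Ndufc1 and Ndufc2, subunits of the membrane arm, were both called lower. Ndufc1 had 26.7, 24.9 and 26.4 CPM in AAV9-hFNDC4, against 37.5, 54 and 43.3 CPM in AAV9-CTRL (log2 fold change -0.79, SE 0.14, adjusted p = 0.000804). Ndufc2 had 56.2, 58.1 and 53.7 CPM in AAV9-hFNDC4, against 79, 92.9 and 98 CPM in AAV9-CTRL (log2 fold change -0.68, SE 0.11, adjusted p = 0.000504). Neither gene had overlapping groups. Ndufab1, the mitochondrial acyl carrier protein, which also serves fatty acid and iron-sulfur cluster synthesis, had 66.5, 69.1 and 64.6 CPM in AAV9-hFNDC4, against 97.9, 113 and 111 CPM in AAV9-CTRL (log2 fold change -0.685, SE 0.10, adjusted p = 0.000307). Its copy Ndufab1-ps had 3.02, 2.69 and 2.72 CPM in AAV9-hFNDC4, against 3.44, 4.53 and 5.21 CPM in AAV9-CTRL (log2 fold change -0.64, SE 0.245, adjusted p = 0.0482). How reads were split between Ndufab1 and Ndufab1-ps is not stated, and the copy missed the threshold when any library except AAV9-CTRL replicate 1 was left out (adjusted p = 0.0759 to 0.18).

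Of the 8 assembly factors, 7 were called lower, with a median log2 fold change of -0.71 over the 8. The median of the 42 subunits tested, of which 38 were called lower, differed from it by -0.002 (subunits minus assembly factors). Without the copies, 37 of 39 subunits were called lower, their median was -0.747 and the difference was -0.04. In human cells, Ndufaf1 takes part in an early assembly complex of the membrane arm. It had 15.8, 17.8 and 15.5 CPM in AAV9-hFNDC4, against 25.6, 25.7 and 28.4 CPM in AAV9-CTRL (log2 fold change -0.70, SE 0.12, adjusted p = 0.000776). Ndufaf2 is a paralog of Ndufa12, known from fungal and human work to hold its place on the complex until Ndufa12 joins. It had 16.9, 18.2 and 16 CPM in AAV9-hFNDC4, against 28.4, 32.4 and 35.3 CPM in AAV9-CTRL (log2 fold change -0.91, SE 0.13, adjusted p = 0.000184). Ndufa12 had 68.1, 72.1 and 70.1 CPM in AAV9-hFNDC4, against 98.4, 121 and 96.2 CPM in AAV9-CTRL (log2 fold change -0.59, SE 0.11, adjusted p = 0.0015). The factor and the subunit that replaces it were thus both lower in every AAV9-hFNDC4 library.

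Ndufaf8, in human cells a partner of Ndufaf5, had the lowest fold change of the assembly factors, with 8.89, 8.84 and 8.09 CPM in AAV9-hFNDC4, against 13.7, 21 and 15.9 CPM in AAV9-CTRL (log2 fold change -0.97, SE 0.18, adjusted p = 0.000987). Ndufaf4 had 32.7, 46.7 and 32.2 CPM in AAV9-hFNDC4, against 65.5, 51.3 and 68.5 CPM in AAV9-CTRL (log2 fold change -0.73, SE 0.16, adjusted p = 0.00344). For Ndufaf4, unlike most members, AAV9-CTRL replicate 2 was the lowest control. Ndufaf6 (log2 fold change -0.71, adjusted p = 0.00253), Ndufaf3 (-0.59, adjusted p = 0.0161) and Ndufaf5 (-0.54, adjusted p = 0.019) were lower too. Ndufaf3 missed the threshold without AAV9-hFNDC4 replicate 2 (adjusted p = 0.0552). Ndufaf5, which in human cells hydroxylates an arginine of Ndufs7, missed it without AAV9-hFNDC4 replicate 1 or 3 or without AAV9-CTRL replicate 3 (adjusted p = 0.0864, 0.0812 and 0.0669 in that order). Ndufaf7, in human cells an arginine methyltransferase of the mitochondrial matrix, was the assembly factor without a call. It had 29, 22.1 and 23.3 CPM in AAV9-hFNDC4, against 25.3, 29.5 and 28.6 CPM in AAV9-CTRL (log2 fold change -0.16, SE 0.135, adjusted p = 0.346), and its groups overlapped.

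**Figure D3:**
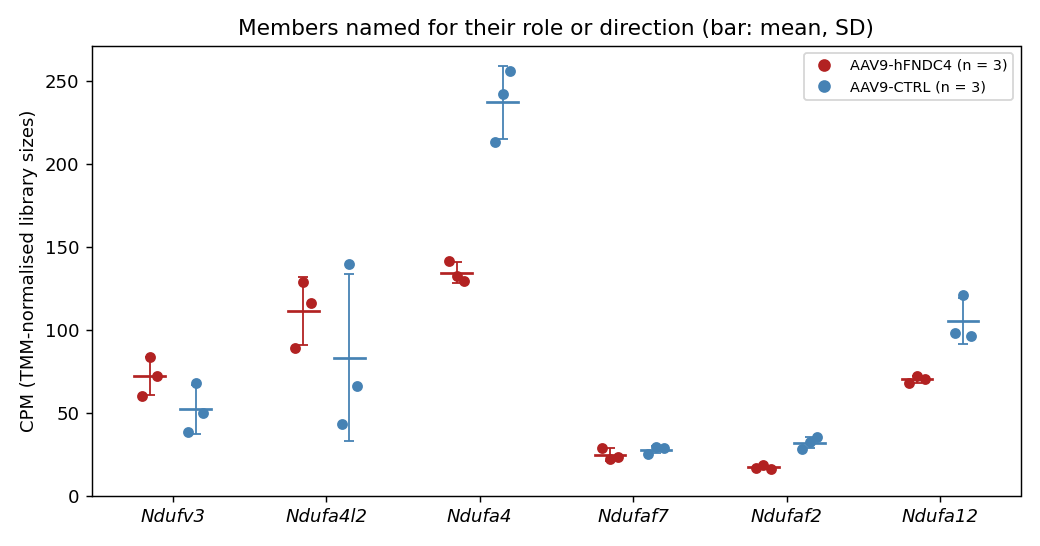
CPM per library of Ndufv3, Ndufa4l2, Ndufa4, Ndufaf7, Ndufaf2 and Ndufa12, AAV9-hFNDC4 (left of each pair) and AAV9-CTRL (right), n = 3 each, with bars for mean and SD. The groups overlap for Ndufv3, Ndufa4l2 and Ndufaf7 and are apart for Ndufa4, Ndufaf2 and Ndufa12, and the controls of Ndufa4l2 spread from 43.5 to 139.9 CPM.

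Levels were compared between genes as CPM per kb of the median coding transcript. The highest level among the members was that of Ndufa4, at 292.5 CPM per kb in AAV9-hFNDC4 and 516 in AAV9-CTRL. It was followed by Ndufa7 (204 CPM per kb in AAV9-hFNDC4 and 356 in AAV9-CTRL) and Ndufa6 (183.5 in AAV9-hFNDC4 and 280.4 in AAV9-CTRL). Assembly factors stood far below these 3 genes, between 6.64 CPM per kb (Ndufaf3) and 27.6 CPM per kb (Ndufaf2) in AAV9-hFNDC4. The subunits Ndufb2 (12.4 CPM per kb) and Ndufab1 (27.2 CPM per kb) lay within that range in AAV9-hFNDC4. Their place rests on the transcript lengths used, 2413 bases for Ndufb2 and 2448 bases for Ndufab1. Their mean CPM in AAV9-hFNDC4 were 29.9 and 66.7 in that order. Summed over the 39 subunits without the copies, the level was 3241, 3263 and 3173 CPM per kb in AAV9-hFNDC4, against 4528, 5746 and 5402 CPM per kb in AAV9-CTRL. The 8 assembly factors summed to 96.4, 102 and 92.4 CPM per kb in AAV9-hFNDC4, against 148, 169 and 169.7 CPM per kb in AAV9-CTRL. The ratio of the subunit sum to the assembly sum was 33.6, 31.9 and 34.4 in AAV9-hFNDC4, against 30.7, 34 and 31.8 in AAV9-CTRL. Both sums were lower in every AAV9-hFNDC4 library, while the ratios of the groups overlapped.

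**Figure D4:**
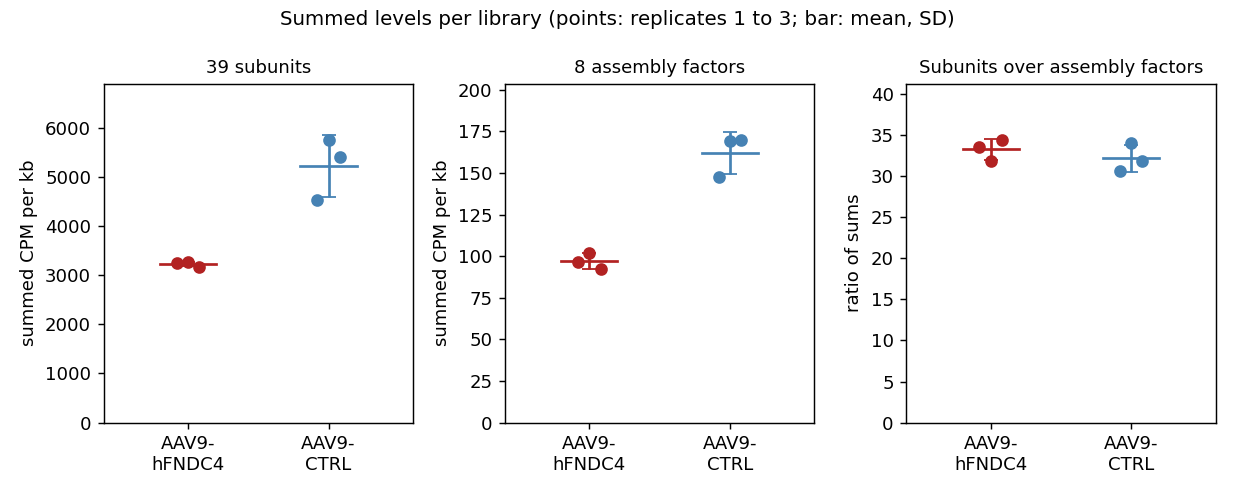
Summed CPM per kb of 39 subunits (left), of 8 assembly factors (middle) and the ratio of these sums (right), per library, AAV9-hFNDC4 beside AAV9-CTRL, with bars for mean and SD. The sums are apart (subunits 3173 to 3263 against 4528 to 5746; assembly factors 92.4 to 102 against 148 to 169.7), and the ratios overlap (31.9 to 34.4 against 30.7 to 34).

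Among the controls, AAV9-CTRL replicate 1 was the lowest control in 45 of the 51 members, and AAV9-CTRL replicate 2 the highest in 37. Among the AAV9-hFNDC4 libraries, replicates 1, 2 and 3 were the highest in 20, 23 and 8 members and the lowest in 11, 18 and 22, so no such order recurred. The median coefficient of variation of the CPM over the 47 members without the copies was 5.19% in AAV9-hFNDC4 and 11% in AAV9-CTRL.

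Fold change moved with transcript length in these libraries, and complex I transcripts are short. The median coding transcript was 861 bases long over the 49 tested members with a length, against 2560 bases over all tested genes. In the 10% of all tested genes with the shortest transcripts the median log2 fold change was -0.47 and 47.2% were called lower, while in the 10% with the longest the median was 0.40 and 9.58% were called lower. Across genes, Spearman's rho between log2 fold change and transcript length was 0.40 over the 49 members and 0.32 over 13567 genes; these genes share the same 6 libraries and are not independent replicates. Among the 1931 tested genes with transcripts of 586 to 1282 bases, the middle range of the subunits' transcript lengths, the median log2 fold change was -0.39 and 45% were called lower. After a correction that removed the trend on transcript length from each library, 32 members were called lower and 1, Ndufv3, higher (log2 fold change 0.95, adjusted p = 0.000738), where 24.0% of all genes tested were lower and 19.9% higher. The median log2 fold change of the members was then -0.37. With exon length in place of transcript length, 31 were called lower and 2, Ndufv3 and Ndufa4l2, higher, where 23.5% of all genes tested were lower and 19.3% higher, and the median was -0.31. What the length trend reflects in these libraries was not tested.

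**Figure D5:**
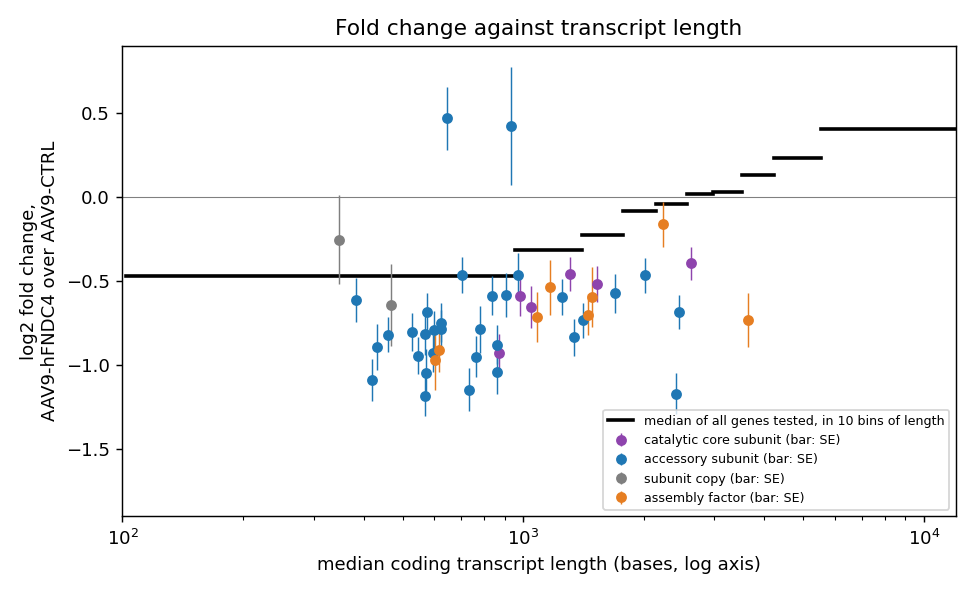
Log2 fold change (AAV9-hFNDC4 over AAV9-CTRL) of the tested members against their median coding transcript length on a log axis, with bars for the standard error; black steps give the median of all tested genes in each of 10 equal bins of length, drawn within the axis limits. Most members lie to the left and below the steps, whose height goes from -0.47 in the shortest bin to 0.40 in the longest, and Ndufv3 and Ndufa4l2 lie above them.

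The corrections changed which members passed. In the transcript length correction 4 of the 8 assembly factors, 4 of the 6 core subunits described above and 24 of the 32 genes with accessory subunit symbols were called lower. Ndufb6 (log2 fold change -0.70), Ndufb10 (-0.71), Ndufb2 (-1.16) and Ndufs7 (-0.54) were among them. Among the members that missed the threshold were Ndufa6, Ndufa12, Ndufab1-ps, Ndufb4, Ndufb9, Ndufb11, Ndufc2, Ndufs8, Ndufv2, Ndufaf3, Ndufaf5 and Ndufaf6. The annotated length of Ndufb2, 2413 bases, rests on long transcripts, so its value changed little. Ndufv3 has a transcript length of 645 bases and an exon length of 2029 bases. Its log2 fold change was 0.95 with the transcript and 0.64 with the exon length correction (adjusted p = 0.0142 for the latter). Ndufs3 (adjusted p = 0.117) and Ndufa13 (adjusted p = 0.0524) missed the threshold under the exon but not the transcript length correction.

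Of the 7 complex I genes of mitochondrial DNA tested, 1 was called higher and none lower at an adjusted p under 0.05 (edgeR). Of all genes tested, 22.1% were called higher and 25.0% lower. None of the 7 was lower at an unadjusted p under 0.05, and their median log2 fold change was 0.45. The fold changes of 6 were positive, that of ND6 was negative (-0.19, adjusted p = 0.331), and the groups overlapped in 5. The other 2, ND4L and ND5, had every AAV9-hFNDC4 library above every control, as did 27.1% of all genes tested. ND5, a proton-pumping subunit of the membrane arm, had 3496, 3519 and 3044 CPM in AAV9-hFNDC4, against 2161, 1393 and 1224 CPM in AAV9-CTRL (log2 fold change 1.07, SE 0.185, adjusted p = 0.000713). The 3 AAV9-hFNDC4 libraries of ND5 lay above all controls. ND4L (log2 fold change 0.85, adjusted p = 0.151) and ND2 (0.45, adjusted p = 0.182) were not called. Both passed after the exon length correction (adjusted p = 0.0475 for ND4L and 0.0289 for ND2). ND4L was low, at 1.36, 1.44 and 1.55 CPM in AAV9-hFNDC4 and 1.13, 0.956 and 0.329 CPM in AAV9-CTRL. ND3 was low too (mean 0.936 CPM in AAV9-hFNDC4 and 0.68 CPM in AAV9-CTRL), whereas ND2 averaged 1197 and 877.5 CPM in that order. Together the 7 genes took 0.774% to 0.911% of all counts in AAV9-hFNDC4 and 0.302% to 0.651% in AAV9-CTRL. A test of the difference between the nuclear and the mitochondrial set was not run.

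Of 14 complex I assembly genes with other symbols that were tested, 6 were called lower and 1 higher, where 25.0% of all genes tested were lower and 22.1% higher, with a median log2 fold change of -0.13. Tmem126a, which in human cells helps to assemble the membrane arm, had 39.3, 44.3 and 39.7 CPM in AAV9-hFNDC4, against 62.5, 65.6 and 65.5 CPM in AAV9-CTRL (log2 fold change -0.65, SE 0.105, adjusted p = 0.000462). Ecsit (log2 fold change -0.61, adjusted p = 0.000853) and Dmac1 (-0.74, adjusted p = 0.00195) were lower as well. Tmem186 was the gene called higher (log2 fold change 0.605, adjusted p = 0.00325). Ecsit and Tmem186 are both known in human cells as partners of Ndufaf1 in an assembly complex, and they differed in direction. After the exon length correction 3 of the 14 were called lower and 2 higher, where 23.5% of all genes tested were lower and 19.3% higher. Tmem126a (adjusted p = 0.266), Dmac1 (adjusted p = 0.183) and Aifm1 (adjusted p = 0.183) were no longer called. Ecsit (adjusted p = 0.0182) and Tmem186 (adjusted p = 0.0038) kept their calls, and Lyrm2 was now called higher (log2 fold change 0.49, adjusted p = 0.00328).

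Nuclear subunits of complexes II to V were mostly lower too, with 40 of 45 tested called lower and none called higher by edgeR. Of all genes tested, 25.0% were called lower and 22.1% higher. None of the 45 was higher at an unadjusted p under 0.05, and their median log2 fold change was -0.81. The genes with the smallest p were Atp5e (log2 fold change -1.35), Cox7a2 (-1.18) and Atp5g3 (-1.16), with adjusted p of 2.14e-05, 2.64e-05 and 2.7e-05. The 5 without a call were Sdha, Cox4i2 and the muscle isoform genes Cox6a2, Cox7a1 and Cox8b. All of these but Sdha were low. Mean CPM in AAV9-hFNDC4 and AAV9-CTRL were 0.462 and 1.03 for Cox4i2 and 3.99 and 3.77 for Cox6a2. They were 5.1 and 5.73 for Cox7a1 and 1.09 and 0.997 for Cox8b, in the same order. After the exon length correction 34 of the 45 were called lower, with a median of -0.39, where 23.5% of all genes tested were called lower.

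Of 11 regulators known to act on nuclear respiratory genes or on mitochondrial transcription, 4 were called higher and 4 lower, where 22.1% of all genes tested were higher and 25.0% lower. After the exon length correction 3 were called higher and 7 lower, where 19.3% of all genes tested were higher and 23.5% lower. With the transcript length correction 4 were called higher and 5 lower, where 19.9% of all genes tested were higher and 24.0% lower. Tfb2m, a mitochondrial transcription factor, had 17, 16.2 and 19.6 CPM in AAV9-hFNDC4, against 63.2, 49.2 and 61.2 CPM in AAV9-CTRL (log2 fold change -1.72, SE 0.13, adjusted p = 9.81e-06). Ppargc1a, a coactivator of mitochondrial biogenesis, rose, with 41, 44.6 and 40.9 CPM in AAV9-hFNDC4, against 25.8, 18.8 and 19.8 CPM in AAV9-CTRL (log2 fold change 0.97, SE 0.14, adjusted p = 0.000196). Tfb1m, which methylates mitochondrial ribosomal RNA, rose too (log2 fold change 0.87, SE 0.13, adjusted p = 0.000265). In each of these 3 genes the groups were fully apart. The median log2 fold change of the 11 regulators was -0.22 (-0.40 with the exon length correction). Of the factors whose cores were searched, Yy1 (-0.69, adjusted p = 0.000342) and Esrra (-0.795, adjusted p = 0.000452) were called lower. Nrf1 was called higher (0.31, adjusted p = 0.0333) and Gabpa was not called (-0.21, adjusted p = 0.277). After the exon length correction Gabpa was called lower (adjusted p = 0.0321) and Nrf1 was not called (adjusted p = 0.567).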

How the data were processed

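Per the labels' protocols, TRIzol was used for RNA extraction and a VAHTS Universal V6 kit for the libraries. The authors deposited raw read counts per gene symbol, 1 column per library. fastp, HISAT2, HTSeq, R 3.2.0 and DESeq2, with the build GRCm38 (mm10), are named per the submitters' processing notes; no annotation release, strand setting or rule for multiply matching reads is given in the sources used here.

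The counts of all 6 libraries were fitted together in R 4.3.3 with edgeR 4.0.16 (filterByExpr, TMM, robust quasi-likelihood test of AAV9-hFNDC4 over AAV9-CTRL, Benjamini-Hochberg adjustment over 14663 genes, threshold 0.05). CPM use TMM-scaled library sizes. The lowest total of 32975817 counts limits only rare genes such as Ndufb4c. Replicates of a group differed by more than counting noise, with a mean chi-square per gene of at least 9.08. DESeq2 1.42.0, limma 3.58.1 (voom), RLE and upper-quartile scaling, other filters, a replicate block, length corrections (loess, span 0.4) and leaving out each library were the alternatives. The correction on transcript length and the subunit list without copies were chosen after seeing the data. The fits were tested on simulated data.

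Members and lists were chosen with earlier results of these data known. Every member may be named; full values are given for the core subunits, in each family the 2 smallest p and the largest p, and Ndufa4, Ndufa4l2, Ndufa12 and Ndufaf2, and beyond this rule for Ndufb10, Ndufaf4, Ndufaf8 and the low copy Ndufb4c, chosen after their values were seen. Lengths came from GENCODE vM21 basic (GRCm38), which matched 50 of 51 members (not Ndufb4b) and 21420 of 27482 symbols. The 4 chosen promoters came from RefSeq (GRCm38.p6). Fndc4 itself was not analysed here, and values of 1 member are not reported.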

Additional observations from a re-analysis of the deposited data

How the results depend on the processing

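Of the 45 members called lower, 6 also had a log2 fold change under -1, and between 41 and 45 were called when 1 library was left out. For subunits called lower that range was 35 to 38, and for assembly factors 6 to 7. Members called higher, 0 as reported, all of them subunits, numbered 1 with upper-quartile scaling, without a low-count filter, with DESeq2, with limma-voom and with the transcript length correction, 2 with the replicate block and with the exon length correction, and 0 to 2 without 1 library. Only 4 assembly factors were called lower under either length correction. The median log2 fold change of subunits was -0.313 with the exon and -0.324 with the transcript length correction (-0.764 to -0.645 without 1 library), and that of assembly factors -0.347 and -0.423 (-0.742 to -0.648 without 1 library). The difference of these medians was 0.099 with the transcript length correction (-0.092 to 0.097 without 1 library). Ndufb4 (0.00) and Ndufb9 (0.057) lost their negative sign under the exon length correction. These corrections take a length trend out by construction; the cause of the other shifts was not tested.

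The replicate numbers gave no sign of pairing: correlations of same-numbered deviations were -0.087, -0.202 and -0.059, and no library correlated best with its own number. With 3 libraries per group these values cannot exclude a pairing. With the replicate block 3080 genes were lower and 2663 higher, Ndufa4l2 and Ndufv3 were called higher, and Ndufab1-ps was among those not called. RLE scaling and a filter of at least 1 CPM changed no call among the members tested. Without a filter and with DESeq2 the median log2 fold change of all genes was -0.147 and -0.161, against 0.007 as reported. Depth limits Ndufb4b, Ndufb4c, Ndufs6b and Ndufab1-ps, all under 6 CPM in every library.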
